A study of Mus musculus with 6 samples.

Results

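The mouse Hox genes and the 3 Cdx genes were followed through the differentiation of embryonic stem cells (ESCs) into endoderm. The members were the 39 rows of the deposited gene tables named as numbered genes of the HoxA, HoxB, HoxC or HoxD cluster, together with Cdx1, Cdx2 and Cdx4, 42 of 24054 genes in all. HoxA had 11 rows, HoxB 10, HoxC 9 and HoxD 9. RNA was sequenced from 3 sorted populations of a double knock-in (DKI) ESC line, heterozygous for a Foxa2-Venus and homozygous for a Sox17-Cherry fusion gene, with 2 replicates each. The d0 samples were ESCs at day 0, negative for both reporters. The d3F samples were mesendoderm cells at day 3, positive for Foxa2-Venus and negative for Sox17-Cherry. The d5FS samples were endoderm cells at day 5, positive for both reporters. Differentiation was induced with Wnt3a and Activin A on gelatine, after the line had been thawed on mouse embryo fibroblast feeders and these had been removed. All samples came from 1 line carrying both alleles, so that no group was free of the reporters.

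Hox genes encode homeodomain transcription factors that give cells their position along the head-to-tail axis. They lie in 4 clusters, and genes with low numbers are switched on early and act towards the head, while genes with high numbers are switched on late and act towards the tail. Cdx genes encode related caudal-type homeodomain factors that act upstream of central and posterior Hox genes in the posterior embryo. Cdx2 is also a regulator of the trophectoderm and, together with Cdx1, of the intestinal epithelium. In pluripotent cells the Hox clusters are a classical example of genes kept silent under Polycomb marks. In the definitive endoderm of the embryo, Cdx2 marks the posterior and not the anterior part.

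Expected counts, the RSEM estimates of read pairs per gene, summed to between 16457729 and 22768686 per sample. The markers examined moved with the labels of the populations, but they included Foxa2 and Sox17, whose reporters were used to sort the cells. All 6 pluripotency genes examined fell from d0 to d5FS, all 6 mesendoderm genes rose from d0 to d3F, and all 6 definitive endoderm genes rose in both comparisons with d0. From d3F to d5FS, 2 of the 6 definitive endoderm genes were called higher. The replicate 2 libraries stood apart from the replicate 1 libraries in rows that these cells are not known to use. Of 1122 olfactory receptor genes, a set chosen after the data were seen, 96.0% to 97.1% had no count in the replicate 1 libraries, against 37.0% to 68.4% in the replicate 2 libraries. The 2 d0 libraries also differed in cell state markers. In CPM, the expected count scaled to the same total in each sample, Esrrb stood at 38.9 in d0 replicate 1 and 192 in replicate 2, Nes at 207 and 15.7, and Tagln at 330 and 53.3. Values of each replicate are therefore given for the members.

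Almost no Hox RNA was found at any stage. The 39 Hox genes together held 911 counts over the 6 samples. In deposited TPM, which divides by transcript length and so allows levels of different genes to be compared, the highest Hox value in any sample was 0.72, and 26 of the 39 genes stayed under 0.1 TPM in every sample. Hoxa6 and Hoxc11 had 0 counts in all 6 samples. A further 26 Hox genes never reached 10 counts in a sample, so that 28 in all stayed under that number, and 11 reached it at least once. Only Cdx1 exceeded 1 TPM, and it did so in 1 sample, d0 replicate 2. In bulk samples, fewer cells of a type and less RNA per cell cannot be told apart.

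**Figure D1:**
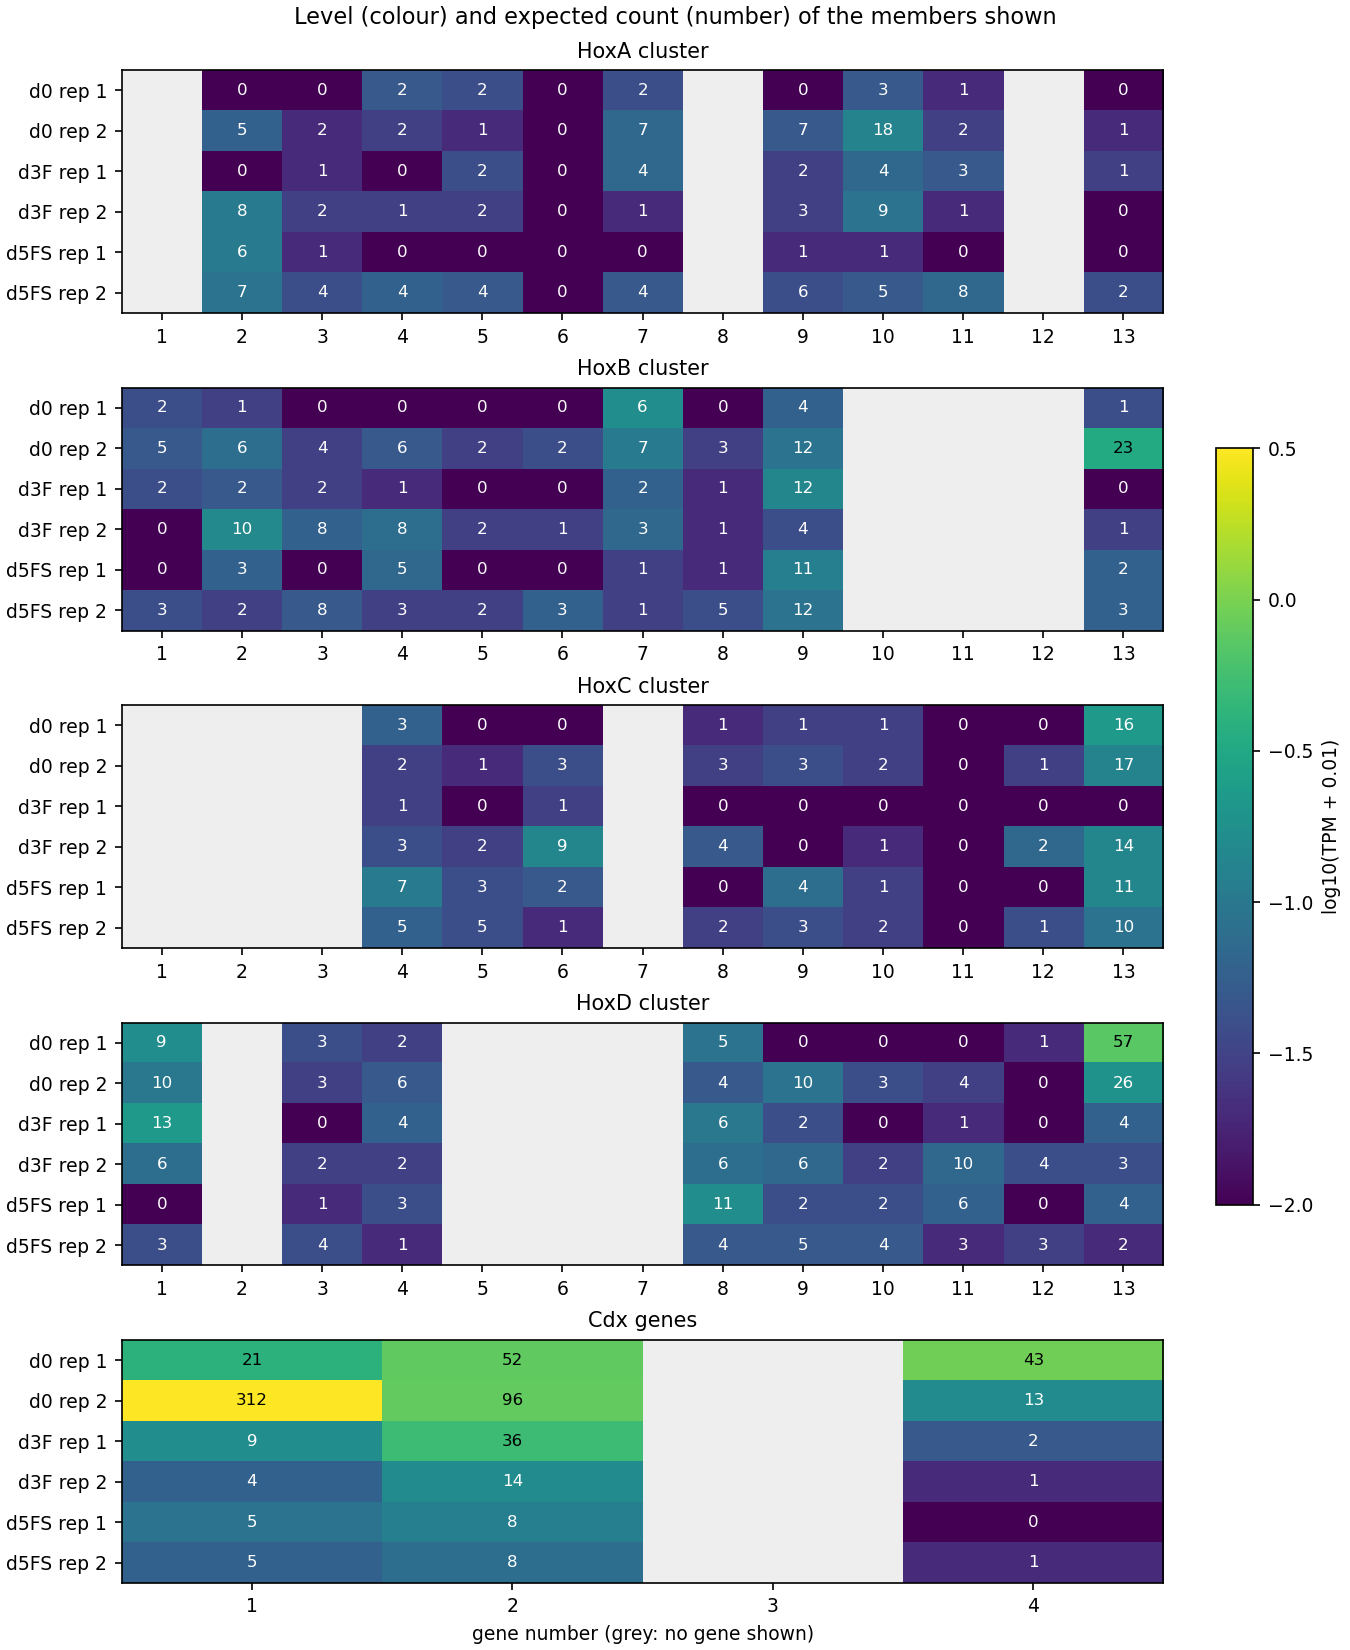
Each square is 1 member in 1 sample. The columns are gene numbers within each cluster, the rows are the 6 samples, the colour gives log10(TPM + 0.01), the printed number is the expected count, and grey marks numbers for which no gene is shown. Most squares hold fewer than 10 counts, and the brightest squares are in d0, among them Cdx1, Cdx2, Cdx4 and Hoxd13.

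Ordered by mean TPM over the 6 samples, Cdx1 (0.650) and Cdx2 (0.398) came first, and Cdx4 (0.183), Hoxd13 (0.173), Hoxc13 (0.112), Hoxd1 (0.0933) and, with 0.0800 each, Hoxb9, Hoxb13 and Hoxd8 were also among the highest. The TPM ranges of these genes over the 6 samples overlapped those of their neighbours in this order, and the order is given as a description. With detection set at more than 3 counts in both replicates, 3 counts being the limit that a count of 0 allows, 10 members were detected in d0, 7 in d3F and 8 in d5FS. The Hox genes detected in d0 included Hoxb7, Hoxb9, Hoxc13, Hoxd1, Hoxd8 and Hoxd13. In d3F they included Hoxa10, Hoxb9, Hoxd1 and Hoxd8, and in d5FS Hoxa2, Hoxb9, Hoxc4, Hoxc13 and Hoxd8.

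Only 7 members had enough counts for the test across genes, among them Cdx1, Cdx2, Cdx4, Hoxb9, Hoxc13 and Hoxd13, and the other 35, all Hox genes, are described by their counts. Differences were called by the edgeR quasi-likelihood test where the adjusted p was under 0.05 and the log2 fold change exceeded 1 in size. From d0 to d3F, Hoxd13 fell, 1 of the 42 members, whereas 4.7% of the 14539 genes tested were called, 2.8% higher and 1.9% lower. From d3F to d5FS no member was called by edgeR or by the DESeq2 Wald test and 0 of the 7 had an unadjusted p under 0.05, beside 1.54% of genes called (1.08% higher and 0.461% lower) and 7.52% by the Wald test. From d0 to d5FS, Cdx1, Cdx2, Cdx4 and Hoxd13 fell, 4 of 42 members, beside 22.8% of the tested genes called, 12.4% higher and 10.4% lower. In each comparison the percentages leave out genes with too few counts for the test, whereas the 42 members include 35 such genes. The bases therefore differ. No member was called higher in any comparison. Cdx1, Cdx4 and Hoxd13 entered the test through their counts in d0 alone, which favours a fall, so nothing is read from the share called among the 7.

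Without a filter on low counts, 40 members entered the fit and the members called from d0 to d5FS were again Cdx1, Cdx2, Cdx4 and Hoxd13, beside 10.1% of 21376 genes called lower. From d0 to d3F, 4 members were called lower in that fit, among them Cdx1, Cdx4 and Hoxd13, beside 3.89% of genes, and the DESeq2 Wald test called the same 4, beside 4.51%. The Wald test also called Cdx1, Cdx2, Cdx4 and Hoxd13 lower from d0 to d5FS, beside 13.4% of genes. From d3F to d5FS no member was called without a filter either, beside 6.66% of genes.

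**Figure D2:**
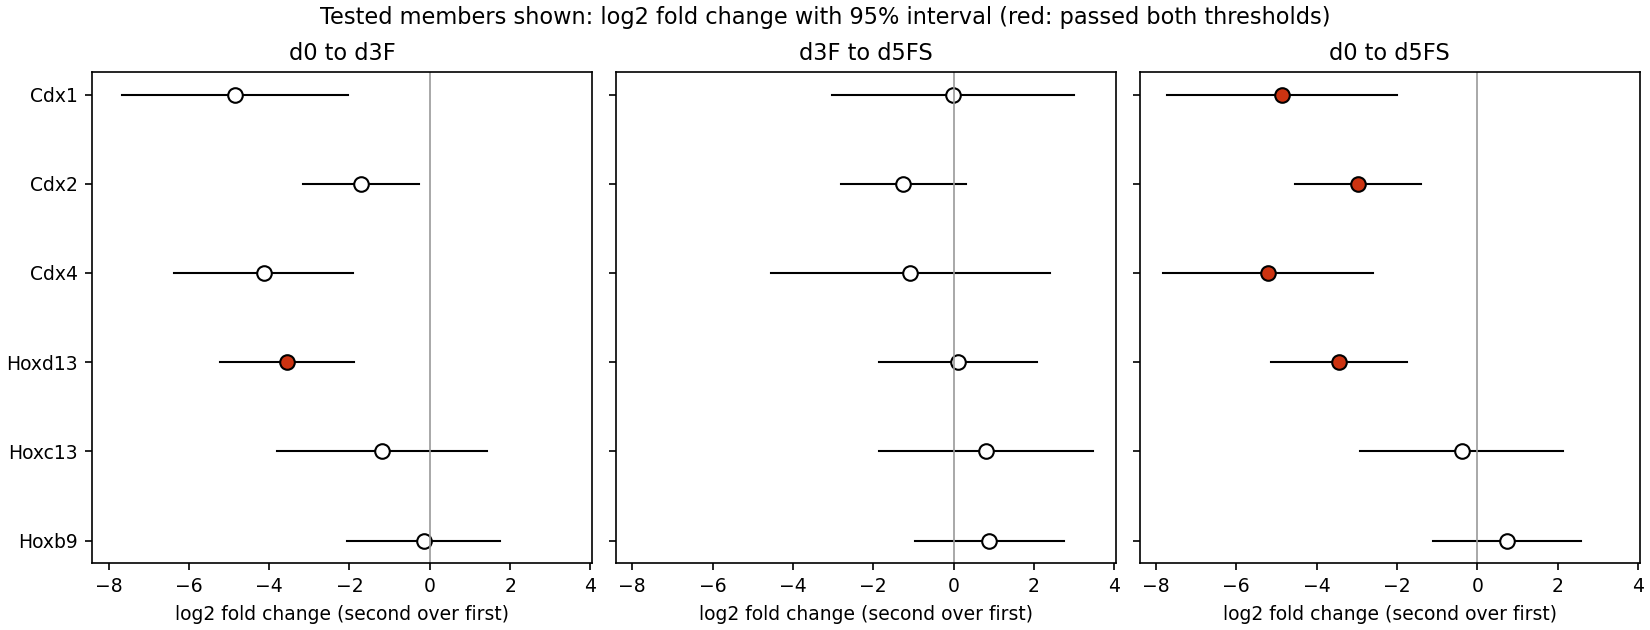
Points are log2 fold changes from the edgeR fit for 6 tested members (rows) in the 3 comparisons (panels), lines are 95% intervals, and filled red points passed both thresholds. Every filled point lies left of 0, with 1 in d0 to d3F, 0 in d3F to d5FS and 4 in d0 to d5FS.

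Cdx1 (chromosome 18, 61018862 to 61036199, minus strand, mm10), which acts in posterior patterning and in the gut epithelium, had the highest count of all members. Its expected counts were 21 and 312 in the d0 replicates, 9 and 4 in d3F, then 5 and 5 in d5FS. In CPM these were 0.950 and 14.0 in d0, 0.395 and 0.193 in d3F, then 0.304 and 0.285 in d5FS, means ± SD of 7.48 ± 9.24, 0.294 ± 0.143 and 0.294 ± 0.0134 (n = 2). Both d0 samples lay above all others, but they differed from each other by more than d0 replicate 1 differed from d3F. From d0 to d5FS its log2 fold change was -4.86 ± 1.25 (SE, edgeR adjusted p = 0.0272), and that from d0 to d3F was -4.84 ± 1.23 (edgeR adjusted p = 0.0626). Without d0 replicate 2, the change to d5FS was -1.66 and was not called (edgeR adjusted p = 0.248), so the size of the fall rested on that library.

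Cdx2 (chromosome 5, 147300805 to 147307270, minus strand), the trophectoderm and hindgut regulator, had its highest counts in d0 and its lowest in d5FS. It had 52 and 96 counts in d0, 36 and 14 in d3F, then 8 and 8 in d5FS. In CPM these were 2.35 and 4.31, then 1.58 and 0.677, then 0.486 and 0.456, and the groups did not overlap. In deposited TPM the 2 d0 samples stood at 0.77 and 0.78, closer than in CPM, and d5FS stood at 0.11 and 0.07. Between d0 and d5FS the log2 fold change was -2.96 ± 0.684 (SE, 95% interval -4.53 to -1.39, edgeR adjusted p = 0.0190). Without d0 replicate 2 it was -2.30 and was not called (edgeR adjusted p = 0.0770). Neither step alone was called, with -1.71 (interval -3.15 to -0.281, edgeR adjusted p = 0.164) from d0 to d3F and -1.25 (interval -2.81 to 0.314, edgeR adjusted p = 0.380) from d3F to d5FS. At d5FS the sum of 16 counts in 2 libraries was low but above 0.

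Cdx4 (chromosome X, 103321398 to 103330592, plus strand), which acts with the other Cdx genes in posterior patterning and in embryonic blood formation, had almost all its counts in d0. It had 43 and 13 counts in d0, 2 and 1 in d3F, then 0 and 1 in d5FS, where a count of 0 allows up to 0.182 CPM. All d0 values lay above all later ones, and here replicate 1 was the higher d0 library, opposite to Cdx1. Summed over replicates, 56 counts in d0 stood against 3 in d3F and 1 in d5FS. With summed counts divided by summed library totals, the ratios were 18.3 (95% counting interval 5.94 to 91.3) and 42.9 (7.40 to 1726). These intervals cover counting error only. They leave out the spread between replicates, such as 43 and 13 counts in d0, and do not bound the difference between the populations. The fall from d0 to d5FS was called (edgeR adjusted p = 0.0159) and that from d0 to d3F was not (edgeR adjusted p = 0.0519), although it was called with DESeq2 size factors (adjusted p = 0.0487). Without d0 replicate 1 the fall to d5FS was not called (edgeR adjusted p = 0.0682).

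Hoxd13 (chromosome 2, 74668310 to 74671599, plus strand), the last gene of its cluster and a regulator of digit, genital and hindgut development, was the only Hox gene called by edgeR after the filter on low counts. Its counts were 57 and 26 in d0, 4 and 3 in d3F, then 4 and 2 in d5FS. The d0 samples, at 2.58 and 1.17 CPM, lay above the 4 later samples, which ranged from 0.114 to 0.243 CPM. The log2 fold change was -3.56 ± 0.731 (SE, edgeR adjusted p = 0.0337) from d0 to d3F and -3.44 ± 0.743 (edgeR adjusted p = 0.0151) from d0 to d5FS. With summed counts divided by summed library totals, d0 stood at 11.6 (95% counting interval 5.39 to 29.8) and 10.6 (4.67 to 29.7) times these groups. Here too the intervals cover counting error only and leave out the spread between replicates. From d3F to d5FS the log2 fold change was 0.12 (interval -1.85 to 2.08). The call from d0 to d3F was lost without any 1 of the 6 samples (edgeR adjusted p from 0.0572 to 0.288), and that from d0 to d5FS without d0 replicate 1 (edgeR adjusted p = 0.0630). Without either d5FS replicate none of the 4 members was called from d0 to d5FS.

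The upstream DNA of 3 members that fell from d0 to d5FS is shown because the genes changed in the same direction while their promoters differed in CpG content, a base composition by which Polycomb-bound promoters are usually described. The 250 bases before each RefSeq start (GRCm38.p6) are written 5′ to 3′ on the strand of the gene, with each CpG in capitals. RefSeq and GENCODE place the starts of Hoxd13 and Cdx2 at different bases. The windows lie at chr2:74667975-74668224 (plus strand, Hoxd13), chr5:147307250-147307499 (minus strand, Cdx2) and chrX:103321148-103321397 (plus strand, Cdx4).
Hoxd13: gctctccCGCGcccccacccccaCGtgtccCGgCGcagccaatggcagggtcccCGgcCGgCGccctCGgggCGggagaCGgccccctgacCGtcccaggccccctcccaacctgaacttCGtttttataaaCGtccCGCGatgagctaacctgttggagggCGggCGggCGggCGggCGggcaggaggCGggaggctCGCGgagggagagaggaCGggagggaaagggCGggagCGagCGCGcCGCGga
Cdx2: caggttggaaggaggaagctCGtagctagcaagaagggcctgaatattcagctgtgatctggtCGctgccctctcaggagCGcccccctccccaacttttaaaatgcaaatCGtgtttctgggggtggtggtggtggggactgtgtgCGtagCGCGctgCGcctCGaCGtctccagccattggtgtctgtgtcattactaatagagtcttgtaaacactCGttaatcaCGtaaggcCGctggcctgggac
Cdx4: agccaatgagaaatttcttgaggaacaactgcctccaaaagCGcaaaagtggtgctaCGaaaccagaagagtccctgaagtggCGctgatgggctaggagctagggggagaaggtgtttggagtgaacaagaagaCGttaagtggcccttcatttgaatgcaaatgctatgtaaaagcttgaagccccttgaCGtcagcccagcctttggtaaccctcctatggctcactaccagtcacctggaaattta
The Hoxd13 window held 31 CpG and 74.4% G or C, the Cdx2 window 13 and 55.2%, and the Cdx4 window 5 and 48.4%. Upstream windows of 24 of the 42 members were found in the RefSeq table, with a median of 12 CpG (2 to 35), against a median of 6 over all 27025 genes of the table, of which 33.8% had at least 12. The letters TTTATG, the core that caudal-type factors prefer, occurred on either strand in 5 of the 24 windows (Hoxa7, Hoxb8, Hoxd3, Hoxd4 and Hoxd11) and in 11.1% of all windows. The letters TATAAA occurred on either strand in 3 (Hoxb8, Hoxd4 and Hoxd13) and in 12.97% of all. These matches describe the sequence only.

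**Figure D3:**
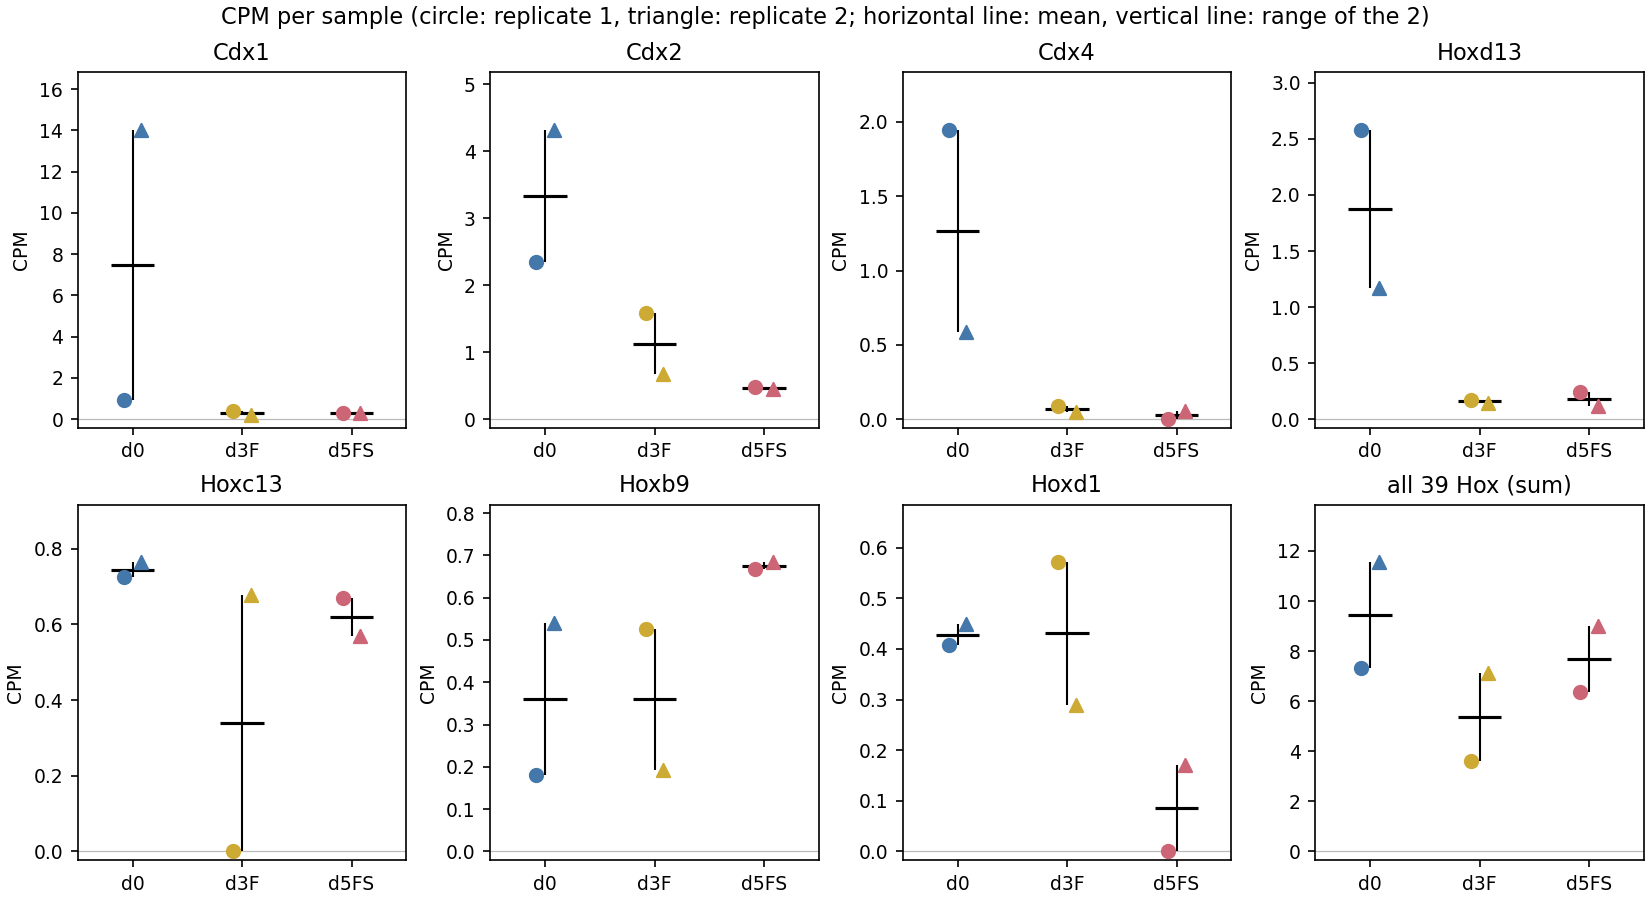
CPM of 6 tested members, of Hoxd1 and of the sum of the 39 Hox genes in each sample, with circles for replicate 1, triangles for replicate 2, a horizontal line for the mean of the 2 replicates and a vertical line for their range (each panel has its own linear scale). The d0 samples of Cdx1, Cdx2, Cdx4 and Hoxd13 lie above all others, while in the sum of the Hox genes the triangle lies above the circle in each group.

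Hoxc13 (chromosome 15, 102921103 to 102928814, plus strand), a regulator of hair and nails, had 16 and 17 counts in d0, 0 and 14 in d3F, then 11 and 10 in d5FS. The d0 values (0.724 and 0.764 CPM) were the highest, and d3F held both the lowest value and a value close to d0. Its log2 fold changes were not called, with -1.20 (interval -3.81 to 1.41) from d0 to d3F and -0.39 (interval -2.91 to 2.13) from d0 to d5FS. Hoxb9 (chromosome 11, 96271457 to 96276595, plus strand), a thoracic patterning gene, had 4 and 12 counts in d0, 12 and 4 in d3F, then 11 and 12 in d5FS. Its d0 and d3F samples overlapped, and the log2 fold change between d0 and d5FS was 0.74 (interval -1.11 to 2.60), also not called.

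The second gene of each cluster by TPM was below the test's limit. Hoxa10, a regulator of the lumbar spine and uterus, had 3 and 18 counts in d0, 4 and 9 in d3F, then 1 and 5 in d5FS, each time more in replicate 2. Hoxb13, which acts in the tail and prostate, had 1 and 23 in d0, 0 and 1 in d3F, then 2 and 3 in d5FS, so its only value above 3 was d0 replicate 2. Hoxc4, the first gene of its cluster, had 3 and 2 counts in d0, 1 and 3 in d3F, then 7 and 5 in d5FS, the 2 highest in d5FS. Hoxd1 had 9 and 10 counts in d0, 13 and 6 in d3F, then 0 and 3 in d5FS, with both d5FS samples below the others. The remaining 29 Hox genes with a count reached at most 11 counts and 0.16 TPM in a sample.

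Taking CPM alone, both d0 samples lay above all 4 later samples for 7 members, among them Hoxb7, Hoxc13, Hoxd13, Cdx1, Cdx2 and Cdx4, and below all 4 for 1, Hoxd8. Over the 21436 genes with a count, the shares were 12.1% and 16.6%. Hoxb7 had only 6 and 7 counts in d0 against 1 to 3 later. Hoxd8 had 5 and 4 counts in d0 and 4 to 11 later, and it overlaps Hoxd3os1 on the opposite strand, a transcript with 0 counts in every sample. In all, 14 members overlap an opposite-strand gene and 15 a same-strand gene, so the split of their few counts is uncertain. Cdx1, Cdx2, Cdx4, Hoxd13 and Hoxc13 overlap none. Of the noncoding RNAs of the clusters, Hotair had at most 3 counts in a sample, Hottip 4 and Hoxa11os 3.

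By cluster, the summed CPM of all 39 Hox genes was 7.33 and 11.5 in d0, 3.60 and 7.11 in d3F, then 6.38 and 9.0 in d5FS, means ± SD of 9.44 ± 2.98, 5.36 ± 2.48 and 7.69 ± 1.85 (n = 2). With 2 samples against 2 an exact permutation test cannot go below p = 0.33. In CPM both d0 samples lay above both d3F samples, and d5FS overlapped both groups. The overlap of d5FS with d0 was absent in deposited TPM. There the d0 totals (2.26 and 2.17) exceeded all later ones, and d5FS (1.36 in each sample) lay within the d3F range (1.14 to 1.55). The ratio of the d5FS mean to the d0 mean was 0.815 in CPM and 0.614 in TPM. Without Hoxd13 the other 38 genes summed to 4.75 and 10.4, then 3.43 and 6.96, then 6.14 and 8.89 CPM. HoxD had the highest mean in d0, at 3.48 and 2.97, then 1.32 and 1.98, then 1.76 and 1.65 CPM. Without Hoxd13 its other 8 genes summed to 0.905 and 1.80, then 1.14 and 1.84, then 1.52 and 1.54 CPM, and these groups overlapped. HoxA had 2.22 and 3.998, then 1.23 and 1.60, then 1.52 and 3.30 CPM. HoxB overlapped between all groups, at 0.633 and 3.14, then 0.966 and 1.84, then 1.40 and 2.39 CPM, and its d0 mean of 1.89 rested on replicate 2. HoxC had 0.995 and 1.44 CPM in d0, a spread from 0.0878 to 1.69 in d3F, and 1.70 and 1.65 in d5FS. For HoxB the ratio of d5FS to d0 was about even in CPM and 0.635 in TPM.

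**Figure D4:**
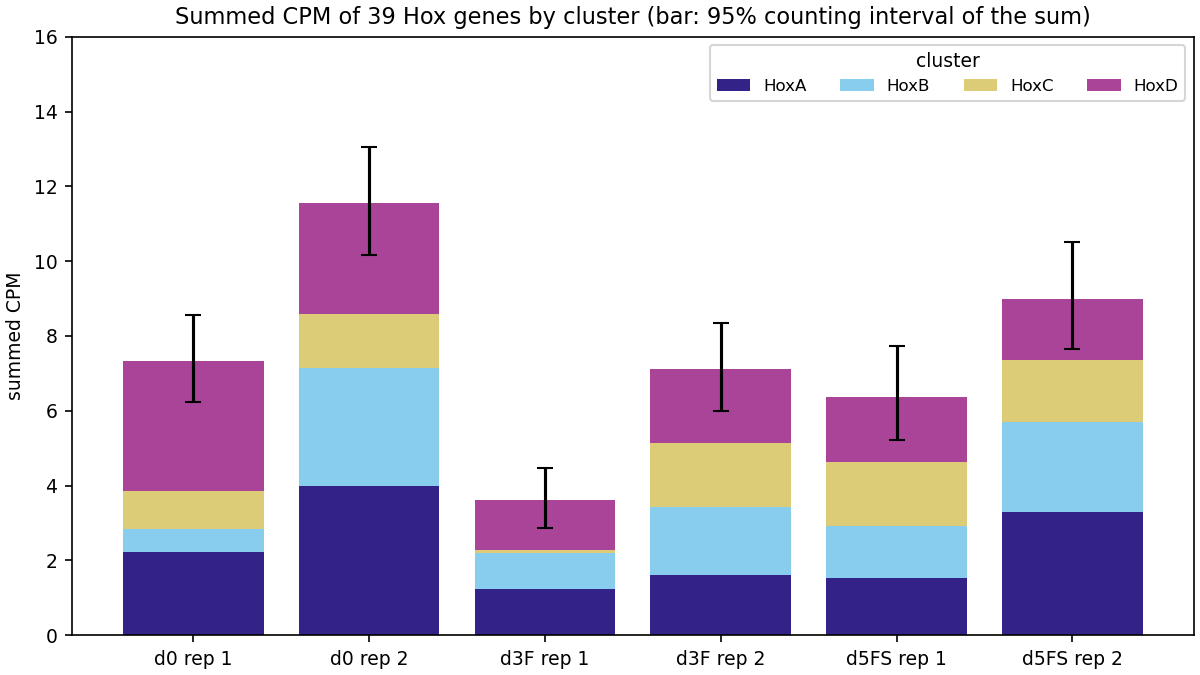
Summed CPM of the 39 Hox genes in each sample, stacked by cluster, with the 95% counting interval of the total as a bar. Totals run from 3.60 in d3F replicate 1 to 11.5 in d0 replicate 2, and within each group replicate 2 is the higher library.

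By gene number, the 12 genes numbered 1 to 4 summed to 0.84 and 0.73 TPM in d0, 0.52 and 0.59 in d3F, then 0.54 and 0.49 in d5FS. The 11 genes numbered 5 to 8 summed to 0.31 and 0.34, then 0.26 and 0.4, then 0.26 and 0.3 TPM, and the 16 numbered 9 to 13 to 1.11 and 1.1, then 0.36 and 0.56, then 0.56 and 0.57 TPM. As mean TPM per gene, numbers 1 to 4 had 0.0654, 0.0463 and 0.0429 in d0, d3F and d5FS. Numbers 5 to 8 had 0.0295, 0.03 and 0.0255, and numbers 9 to 13 had 0.0691, 0.0288 and 0.0353. By these means the high numbers stood above the middle ones in d0 and d5FS but not in d3F. In d0 most of the TPM of numbers 9 to 13 lay in Hoxd13 (0.72 and 0.18), Hoxc13 (0.21 and 0.12) and Hoxb13 (0.03 and 0.33). The d0 order therefore describes these genes more than the whole band.

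In each population the replicate 2 library held more Hox counts than the replicate 1 library. In deposited TPM this held for the Hox sum of d3F alone (1.14 and 1.55). The TPM sums were 2.26 and 2.17 in d0, and 1.36 in both d5FS samples. In CPM, replicate 2 was the higher library for 30 of the 39 Hox genes in d0, 27 in d3F and 25 in d5FS. Hox genes with 0 counts numbered 17, 16 and 15 in the replicate 1 libraries of d0, d3F and d5FS, against 3, 5 and 2 in the replicate 2 libraries. The olfactory receptor genes moved alike. Per kilobase of transcript they had 0.00489 and 0.0243 CPM in d0, 0.00353 and 0.0195 in d3F, then 0.0101 and 0.0616 in d5FS. The 39 Hox genes had 0.0905 and 0.143, then 0.0445 and 0.0878, then 0.0788 and 0.111 CPM per kilobase, which was 18.5 and 5.87, 12.6 and 4.5, and 7.76 and 1.80 times the olfactory receptor level. Without Hoxd13, Hoxc13 and 1 other Hox gene, the 36 left stood at 6.28 and 4.27, 11.3 and 4.18, and 6.02 and 1.66 times that level. All genes together had 15.9 CPM per kilobase. The part of this replicate difference in the low Hox counts was not tested. The labels describe ribosomal depletion of total RNA for all 6 samples. In the study's list of libraries, however, each population has an mRNA and a total RNA entry, neither tied to a replicate number, so a difference in library type cannot be told apart from one between cultures.

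**Figure D5:**
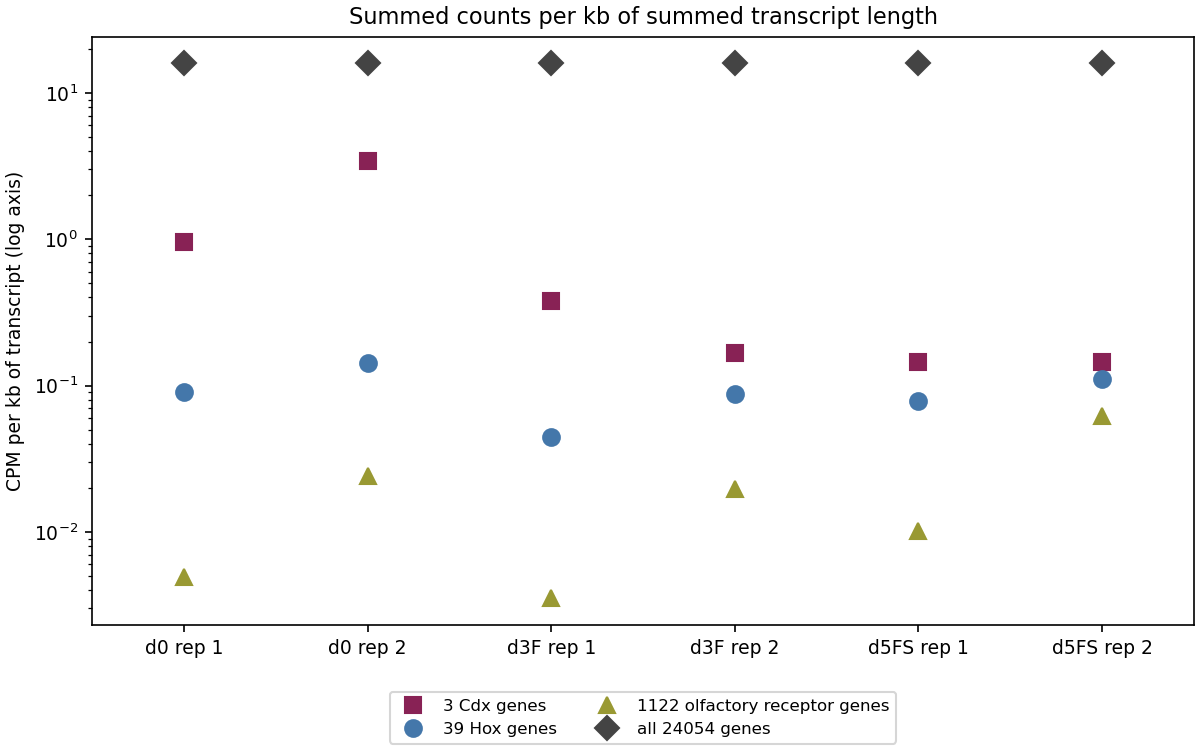
Summed CPM per kilobase of summed transcript length (log axis) in each sample for the 3 Cdx genes, the 39 Hox genes, 1122 olfactory receptor genes and all 24054 genes. The Hox points lie above the olfactory receptor points in all 6 samples, by 18.5 times in d0 replicate 1 and 1.80 times in d5FS replicate 2. Without Hoxd13, Hoxc13 and 1 other Hox gene (not drawn), the 36 left stood at 6.28 and 1.66 times in these samples.

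Cofactors of the Hox proteins had between 13 counts (Pknox2) and 1859 counts (Pbx2) in a sample. All 9 genes of the Pbx, Meis and Pknox families, homeodomain cofactors that bind DNA with Hox proteins, were tested, and none was called by edgeR without a replicate block in any comparison. With the block 1 was called between d0 and d3F, 0 between d3F and d5FS, and 3 between d0 and d5FS. Without it 4 had an unadjusted p under 0.05 between d0 and d3F, 0 between d3F and d5FS, and 3 between d0 and d5FS. Their median log2 fold change was 1.15, -0.34 and 0.99 in that order, beside -0.01, 0.01 and 0.02 over all genes. Meis3 had 6.11 and 2.52 CPM in d0, 14.2 and 20.6 in d3F, then 10.3 and 17.0 in d5FS, with edgeR adjusted p of 0.0634 and 0.0508 against d0. The DESeq2 Wald test called Meis3 and Pbx3 higher in both comparisons with d0. Pbx2, the most abundant, had 35.2 and 55.5 CPM in d0 and 99.3 and 101 in d5FS.

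Of the relatives of the Hox genes outside the numbered series, Evx1, a neighbour of HoxA that acts in the primitive streak, rose. It stood at 1.36 and 0.809 CPM in d0, 5.05 and 5.90 in d3F, then 6.56 and 9.0 in d5FS, a log2 fold change of 2.26 (edgeR adjusted p = 0.0371) from d0 to d3F and 2.75 (edgeR adjusted p = 0.00774) from d0 to d5FS. Evx2, beside Hoxd13, had 0 counts in all samples. Gsx1, Gsx2 and Pdx1, which with the Cdx genes form the ParaHox group, stayed at or under 0.399 CPM. Of 8 genes flanking the clusters, only Ttll6 was called, lower from d0 to d5FS by -3.14 (edgeR adjusted p = 0.0283), from 0.995 and 1.89 CPM to 0.122 and 0.228. The flanking genes Calcoco1 and Skap2 stood at 20.7 to 52.0 and 9.91 to 34.5 CPM and were not called.

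Some of the signals known to act on Cdx and Hox genes changed. Of 12 posterior axis genes, 10 were tested. Between d0 and d3F 4 rose and 1 fell, between d3F and d5FS 2 fell, and from d0 to d5FS 4 rose and 2 fell, with median log2 fold changes of 2.28, -0.52 and -0.11. The DESeq2 Wald test called 1 higher and 4 lower between d3F and d5FS. Fgf8, a streak and tail bud growth factor, rose from 1.40 and 1.75 CPM in d0 to 124 and 141 in d3F. Fgf4 fell from 80.4 and 97.4 to 12.5 and 5.03. Cyp26a1, which degrades retinoic acid, rose from 9.68 and 6.60 CPM in d0 to 148 and 183 in d3F and 481 and 303 in d5FS, a log2 fold change of 5.48 to d5FS (edgeR adjusted p = 0.000916).

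Of 12 genes of retinoic acid synthesis, breakdown and reception, Cyp26a1 among them, 11 were tested. Between d0 and d3F 3 rose, between d3F and d5FS 1 rose, and from d0 to d5FS 4 rose and 4 fell, with median log2 fold changes of -0.02, 0.19 and 0.16. The DESeq2 Wald test called 4 higher and 2 lower between d0 and d3F, and 3 higher between d3F and d5FS. Rarb, a receptor and itself a target of retinoic acid, rose from 0.679 and 0.314 CPM in d0 to 2.42 and 5.71 in d3F and 25.8 and 35.4 in d5FS, a log2 fold change of 5.84 (edgeR adjusted p = 0.00196). Rxra, a partner of the receptors, rose from 14.2 in both d0 samples to 71.5 and 115 in d5FS. Among Hox genes at the early end, Hoxd1 stood at 0.407 and 0.449 CPM in d0 and 0 and 0.171 in d5FS. Others went the other way, with Hoxa2 at 0 and 0.225 CPM in d0 and 0.365 and 0.399 in d5FS. Hoxc4 stood at 0.136 and 0.0899 CPM in d0 and 0.425 and 0.285 in d5FS. The 12 genes numbered 1 to 4 summed to 2.76 and 4.27 CPM in d0 and 2.55 and 3.30 in d5FS. Whether retinoic acid bears on these low counts was not tested.

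Markers of other cells that could carry Hox or Cdx RNA were given the same count. Of 12 fibroblast genes for the removed feeders, 1 rose between d0 and d3F, 0 between d3F and d5FS (5 of 11 at an unadjusted p under 0.05, 3 by the DESeq2 Wald test) and 4 from d0 to d5FS. Their summed CPM ranged from 73.2 to 359 in d0, 369 to 544 in d3F and 800 to 1553 in d5FS. Tagln, Col1a2 and Col3a1 were the highest, and Lum had no count in 4 of the 6 samples. The sum was lower in d0 replicate 2, where Cdx1 was high, than in d0 replicate 1, where Cdx4 and Hoxd13 were high. Most of it was Tagln, and without that gene it was 28.6 and 19.9 CPM in d0. Col1a1 (2.67 and 6.15 CPM), Col1a2 (0.769 and 2.88), Col6a3 and Prrx1 were instead higher in d0 replicate 2. Fbn1 (16.9 and 5.80 CPM), Thy1 (3.17 and 1.30), Twist2, Dcn, Postn and, by 1 count, Lum were, like Tagln, higher in replicate 1. Col3a1 stood at 1.99 and 2.07 CPM, so the listed genes did not move together. Of 10 trophoblast genes, which bear on Cdx2, 7 were tested. Between d0 and d3F 1 rose, between d3F and d5FS 2 rose, and from d0 to d5FS 2 rose and 2 fell. The DESeq2 Wald test called 1 higher and 3 lower (Ascl2, Gcm1 and Tfap2c) between d0 and d3F, and 3 higher and 1 lower between d3F and d5FS. Their sum was 61.7 and 69.3 CPM in d0, 55.7 and 58.9 in d3F, then 127 and 87.2 in d5FS. The higher d5FS sum rested on Krt7, at 6.97 and 6.33 CPM in d0 and 83.1 and 44.7 in d5FS. Tfap2c went the other way, from 34.1 and 48.8 to 7.47 and 4.84 CPM. Krt7, Tfap2c and Tead4 were the highest, and Elf5 stood between 0 and 0.629 CPM. Of 10 neural genes, 7 were tested. Between d0 and d3F 1 rose and 1 fell, between d3F and d5FS 1 fell, and from d0 to d5FS 1 rose and 2 fell. They summed to 300 and 128 CPM in d0, 285 and 167 in d3F, then 136 and 86.3 in d5FS, with Nes, Tubb3 and Olig2 the highest. The part of these cells in the Hox and Cdx values was not tested.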

How the data were processed

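RNA-seq of d0, d3F and d5FS cells was used, with 2 replicates each, grouped by the sorting markers and time points of their labels. Per the labels, total RNA was depleted of ribosomal RNA, although the study's list of libraries also names mRNA entries, and sequenced as paired ends with a kit that does not mark strand. The authors aligned reads to mm10 with STAR and deposited RSEM gene tables, whose versions are not given in the sources used here. The deposited expected counts estimate the read pairs of each gene without normalization, and the deposited TPM values are scaled for effective length to a common sum. The deposited FPKM values were not used. No row without a gene name was present.

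CPM was computed as the expected count over the sample total, and lengths for CPM per kilobase were those deposited for d0 replicate 1. Expected counts were rounded, filtered by filterByExpr (14539 genes kept), normalized by TMM and fitted with edgeR 4.0.16 in R 4.3.3 (glmQLFit, glmQLFTest), with a mean per group over all 6 samples and 3 residual degrees of freedom. Calls needed a Benjamini-Hochberg adjusted p under 0.05 over all genes tested and a log2 fold change over 1 in size. Standard errors were obtained by dividing the size of the log2 fold change by the root of F. Counting intervals are exact Poisson intervals for sums and exact binomial intervals for ratios of counts pooled over replicates. They cover counting error only, as does the limit of 3 counts, 0.132 to 0.182 CPM by sample. The alternatives were DESeq2 size factors, the DESeq2 1.42.0 Wald test, no filter, at least 10 counts in every sample, a replicate block, fits of the groups compared and fits without each sample. For levels they were TMM library sizes and TPM. Sums without Hoxd13 or Tagln were added after the data were seen. The scripts were tested on simulated data and used Python 3.11.15 with matplotlib 3.10.9, scipy 1.17.1, numpy 2.4.6 and pandas 2.3.3.

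Gene positions are from GENCODE M21 on mm10 and upstream sequences from RefSeq on GRCm38.p6. Values in every sample were given for the Cdx genes, all called members and the 2 highest Hox genes of each cluster by mean TPM, of which 1 is not reported here. Listed genes were named as the 3 with the smallest adjusted p, or, for other cell types, the highest CPM. The members and gene lists were chosen with earlier results of these data known. The study calls the replicates independent. Its other assays were not analysed here.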

Additional observations from a re-analysis of the deposited data

How the results depend on the processing

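For all genes, the number called from d0 to d3F was 683 and became 1516 with the DESeq2 Wald test, 1933 without a filter, 357 with at least 10 counts in every sample, 1320 with a replicate block, 430 with only the groups compared, and 97 to 977 when 1 sample was left out. From d3F to d5FS it was 224 and became, in that order, 1094, 1423, 144, 918, 529 and 0 to 496, with 0 when d3F replicate 1 was left out. From d0 to d5FS it was 3313, and leaving out 1 sample gave 1047 to 3037.

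Members called from d0 to d3F numbered 1 and became 2 with DESeq2 size factors, 4 with the DESeq2 Wald test, 4 without a filter, 0 with at least 10 counts in every sample (no member met that limit) and 2 with a replicate block, which added Cdx4. Leaving out 1 sample gave 0 to 2, and without d0 replicate 1 these were Cdx1 and Hoxb13. From d3F to d5FS all settings gave 0. From d0 to d5FS the 4 members became 0 with at least 10 counts in every sample and 0 to 4 when 1 sample was left out: without d0 replicate 1 Cdx1 and Cdx2 were called, without d0 replicate 2 Cdx4 and Hoxd13, and without either d5FS replicate none. The cause was not tested, except that fewer samples were fitted.

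Samples of the same number correlated by 0.314, 0.324 and 0.278 in their deviations from the group means. In each group the replicate 2 library also held more Hox and olfactory receptor RNA in CPM. The labels tie a number to no shared culture or batch, so the main fit had no block and what the numbers share was not tested. The block changed no other member's call.

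Uncalled changes turned sign in some settings. Cdx1 from d3F to d5FS was 0.00186 with the DESeq2 Wald test and -0.36 to 0.47 when 1 sample was left out. The leave-one-out ranges were -0.92 to 0.99 for Hoxb9 from d0 to d3F, -0.25 to 6.63 for Hoxc13 and -0.45 to 0.51 for Hoxd13 from d3F to d5FS.

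The ratio of HoxB in d5FS over d0 was 0.883 with TMM library sizes and 0.635 in TPM, that of HoxD was 0.388 in TPM, and HoxC in d5FS was 1.62 CPM with TMM library sizes. With at least 10 counts in both replicates, 6, 1 and 3 members were detected in d0, d3F and d5FS, and with at least 1 CPM in both, 3, 0 and 0. Summed Hox CPM without 1 sample of a group is the value of the other sample, 7.33 or 11.5 in d0, 3.60 or 7.11 in d3F and 6.38 or 9.0 in d5FS. It therefore adds no check beyond the replicate values. The low counts limit what a fold change of a Hox gene can show.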
